A study of Mus musculus with 16 samples.

Results

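The genes described are 9 complement components and receptors, read in the cerebral cortex of irradiated and sham-exposed mice. They are C1qa, C1qb and C1qc, which encode the chains of C1q, then C3, C4a, C4b and Cfb, and the receptors C3ar1 and C5ar1. They were chosen by name, and every array probe whose RefSeq accession maps to one of these symbols was taken, which gave 12 of the 56605 probes on the array. All 9 genes kept at least 1 probe well above background on 4 or more arrays, and were tested among 17436 genes. The arrays held RNA of 16 male mice on a C57BL/6 background, with 1 array for each mouse and 4 mice in each of 4 groups. The groups were wild-type littermates after sham exposure, wild type after irradiation, mice labelled Neil1 knockout (Neil1-/-) after sham exposure, and mice with that label after irradiation. NEIL1 is an enzyme of base excision repair that cuts damaged bases out of DNA, and the series title names neuroinflammation after stress among its subjects. Irradiation was 6 Gy of whole-body gamma rays at 0.74 Gy per minute, the mice were 28 to 42 weeks old, and cortex was taken 20 h later. By the protocols in the labels, BrdU, a thymidine analogue taken up by dividing cells, was given to the mice at 100 mg/kg ahead of the exposure, with a second injection 2 h after it.

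Complement is a cascade of plasma and tissue proteins that tags surfaces for removal. C1q starts the classical pathway when it binds a target, C4 carries the signal to C3, and the alternative pathway amplifies C3 cleavage through factor B, the product of Cfb. Fragments of C3 and C5 act on the receptors C3aR1 and C5aR1 of myeloid cells. In the brain, C1q is made mainly by microglia, C3 and C4 are made by glia, and C1q and C3 tag synapses for removal by microglia during development.

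Every level below is the log2 processed signal of a probe minus the 75th percentile of its array, given in the order of replicates 1 to 4. Levels of different probes are set against each other only to choose the probe that represents a gene and to see which marker a summed level rests on. The 75th percentile of intensity was 2078 to 2725 on the sham and 1976 to 2510 on the irradiated wild-type arrays, and 1513 to 2240 and 1075 to 1766 on those labelled knockout. All wild-type arrays lay on 1 slide, scanned once, and all labelled knockout arrays on another, so slide and genotype cannot be told apart. On both slides the sham arrays filled 1 row and the irradiated arrays the other, so slide row and treatment cannot be told apart either. The Neil1 probe was brighter on the arrays labelled knockout (from -2.60 to -2.15, against -4.32 to -3.30 on wild-type arrays), so it does not check the label, and directions between genotypes rest on the labels. Of 11 cortical excitatory neuron markers measured, 11 were well above background on all 16 arrays.

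After irradiation Cfb rose, C3, C4a, C4b, C3ar1 and C5ar1 read higher without passing the test, and the C1q genes had changes near 0. Averaged over genotypes, Cfb rose 1.84-fold (log2 change 0.88 ± 0.17 SE, n = 8 against 8, limma with Benjamini-Hochberg adjusted p = 0.0461). This call was lost under 20 of 26 alternatives, among them 13 of the 16 fits that left out 1 array, and the change was 0.43 with normexp background correction. Under normexp the 3316 genes with a mean level under -4, Cfb among them, had a median change of 0.15, against -0.0032 with the processed signal. Cfb was the sole call among the 9 genes, where 0.304% of all 17436 genes were called in either direction and 0.166% in this one. C4a, C5ar1, C3ar1, C3 and C4b had positive changes of 0.30 to 0.62 that did not pass the adjusted threshold, and C1qa, C1qb and C1qc had changes of -0.11 to 0.05. Of the 9 genes, 8 had a positive change, those of C1qb (0.05) and C1qc (0.0028) near 0, and the median was 0.34, against a median of 0.0043 over all genes tested. An unadjusted p under 0.05 was found for 5 of the 9, all in the higher direction, against 2.46% of all genes in that direction.

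**Figure D1:**
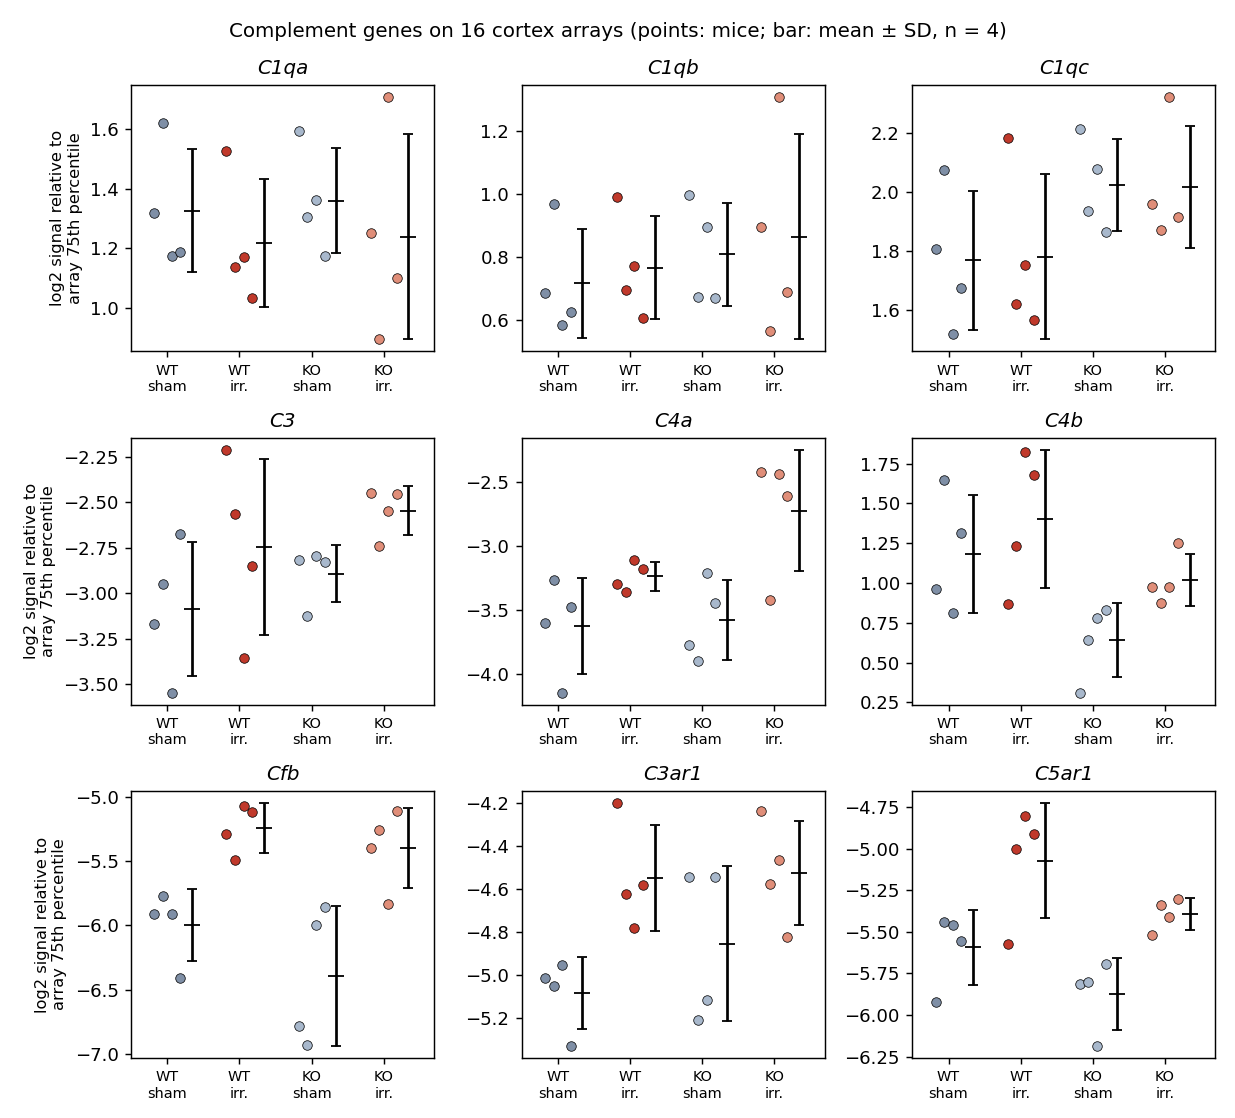
Level of each complement gene (log2 signal minus that of the 75th percentile on the same array) in every mouse, by group, with 1 panel and 1 scale for each gene. Points are mice, and the bar beside them is the mean ± SD of 4 mice. Cfb points of irradiated mice lie above those of sham mice in both genotypes, while C1qa, C1qb and C1qc points overlap between all groups.

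The 3 C1q chain genes, neighbours on chromosome 4 with no gene listed between them, showed no response to irradiation beyond the spread between mice. C1qa, which encodes the A chain, read 1.32, 1.62, 1.18 and 1.19 in sham wild-type mice and 1.53, 1.14, 1.17 and 1.03 in irradiated ones. It read 1.60, 1.31, 1.36 and 1.18 in sham mice labelled knockout and 1.25, 0.90, 1.71 and 1.10 in irradiated ones. The groups overlapped throughout, and both the highest and the lowest C1qa value of the 16 came from the irradiated labelled knockout. The average change of C1qa was -0.11 ± 0.12 (SE), with a 95% confidence interval of -0.37 to 0.14. C1qb, the B chain, ran from 0.58 to 0.97 in wild-type sham and from 0.61 to 0.99 in irradiated wild type. In the labelled knockout it ran from 0.671 to 0.996 in sham and from 0.57 to 1.31 after irradiation, again with full overlap (average change 0.05, 95% interval -0.18 to 0.29). C1qc, the C chain, had means of 1.77 ± 0.24 (SD, n = 4) and 1.78 ± 0.28 in wild type and of 2.02 ± 0.16 and 2.02 ± 0.21 in the labelled knockout, sham before irradiated. Its average irradiation change was 0.0028, with a 95% interval of -0.24 to 0.24, so a change of C1qc beyond that size was not found.

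The C1q genes moved together from mouse to mouse within groups. After the mean of each group was subtracted, C1qa and C1qb correlated with a Pearson r of 0.977 over the 16 arrays, C1qa and C1qc with 0.92, and C1qb and C1qc with 0.893. These points share their array, and so its labelling and scaling. The gene most like C1qa of 17380 ranked was C1qb, followed by Nelfe (0.955) and Exosc4 (0.949), and the most like C1qc were Slc25a1 (0.964), D430020J02Rik (0.959) and Trim62 (0.954). For C1qb, Orai1 (0.939) and Rnf5 (0.931) followed C1qa. The first principal component of all genes after subtraction of group means held 31.3% of the variance, and C1qa, C1qb and C1qc correlated with it at 0.567, 0.548 and 0.664. The part of this shared component in the correlation of the C1q genes was not tested. With the 28 microglia markers the within-group correlations of C1qa ran from -0.693 to 0.914, with a median of 0.211.

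**Figure D2:**
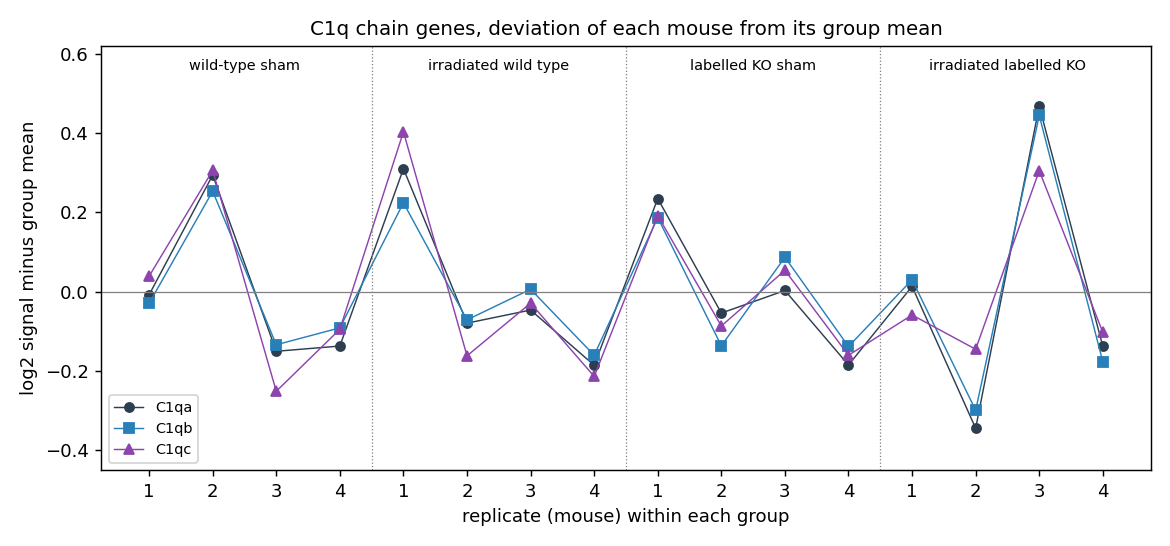
Deviation of C1qa, C1qb and C1qc from their group mean (log2 scale) in each of the 16 mice, by replicate within each group. The 3 lines follow each other across arrays, with pairwise correlations of 0.893 to 0.977.

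The RefSeq promoter table (assembly GRCm38.p6) held 5 of the 9 genes, and the 250 bases before the annotated start are printed for the pair of C1q genes in it because these genes moved together. Capitals mark matches, on either strand, to GAGGAAG (the ETS core read by PU.1, the myeloid master regulator), TGANTCA (AP-1), TTGCNNAA (C/EBP), GGG and CC with any 5 bases between them (NF-kB), or GAAA repeated after any 2 bases (interferon response element). The motif set was chosen after the promoters had been seen. Of 32851 promoters searched over the same length, 10.61% held the first, 6.75% the second, 9.56% the third, 45.8% the fourth and 2.98% the fifth.
C1qb (chr4:136886201-136886450, minus strand): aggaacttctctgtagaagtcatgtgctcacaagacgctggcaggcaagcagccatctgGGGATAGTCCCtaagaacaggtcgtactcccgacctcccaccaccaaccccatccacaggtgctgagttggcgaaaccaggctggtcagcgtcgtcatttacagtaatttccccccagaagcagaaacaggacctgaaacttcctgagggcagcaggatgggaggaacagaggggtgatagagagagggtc
C1qc (chr4:136892915-136893164, minus strand): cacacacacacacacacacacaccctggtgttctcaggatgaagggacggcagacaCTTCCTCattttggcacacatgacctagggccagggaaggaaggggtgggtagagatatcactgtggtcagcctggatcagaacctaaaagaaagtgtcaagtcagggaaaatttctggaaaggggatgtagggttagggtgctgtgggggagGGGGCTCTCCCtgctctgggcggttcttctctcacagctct
The C1qc window held 1 match to GAGGAAG, read on the other strand as CTTCCTC, 187 bases before the start, and a pair of overlapping matches to the NF-kB letters. The C1qb window held a pair of overlapping matches to the NF-kB letters and none to the other motifs. A match describes these letters and does not show binding.

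C4b and C4a lie on chromosome 17 with 4 genes listed between them. C4b encodes complement C4, and C4a is a close copy of it that the RefSeq table lists as a transcribed pseudogene, so the probes of the pair may read each other's transcripts and their separate values are uncertain. C4a read -3.60, -3.27, -4.14 and -3.48 in sham wild-type mice and -3.29, -3.36, -3.11 and -3.18 in irradiated ones. In the labelled knockout it read -3.77, -3.89, -3.21 and -3.44 in sham and -2.42, -3.42, -2.44 and -2.61 after irradiation. The irradiated arrays were high in 3 of 4 labelled knockout mice, and replicate 2 lay inside the sham range. The C4a change was 0.38 ± 0.23 (SE) in wild type and 0.86 ± 0.23 in the labelled knockout, and 0.62 ± 0.16 on average (limma adjusted p = 0.274). Without replicate 2 of the irradiated labelled knockout, the array inside the sham range, the average was 0.74 and passed the threshold (adjusted p = 0.0351). This was 1 of 27 alternatives, and the other 26 gave no call. Over all of them the limma adjusted p reached 0.852, and on the log2 scale the change ran from 0.52 to 0.74.

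C4b was read by a pair of probes. The brighter read 0.96, 1.64, 0.81 and 1.31 in sham wild-type mice and 0.87, 1.23, 1.82 and 1.68 in irradiated ones, which overlap. It read 0.31, 0.64, 0.78 and 0.83 in sham mice labelled knockout and 0.97, 0.88, 0.98 and 1.25 after irradiation, which do not overlap. The average change was 0.30 ± 0.15 on this probe (limma adjusted p = 0.99996) and 0.43 ± 0.13 on the dimmer one (adjusted p = 0.587 among all 39588 kept probes). The dimmer probe had group means of -1.61 ± 0.33 and -1.35 ± 0.23 (SD, n = 4) in wild type, and of -1.71 ± 0.19 and -1.11 ± 0.31 in the labelled knockout. Both C4b probes and the C4a probe thus had higher means after irradiation in each genotype, none past the threshold.

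C3, the component on which all complement pathways meet, also had 2 kept probes, named brighter and dimmer by their mean signal over all 16 arrays (-2.82 and -3.13). The order differed between slides, since the probe named dimmer was the brighter on 7 of 8 wild-type arrays and on 0 of 8 labelled knockout arrays. The choice of the probe that represents C3 therefore rests in part on the slide. The brighter read -3.17, -2.95, -3.55 and -2.68 in sham wild-type mice and -2.21, -2.56, -3.36 and -2.85 in irradiated ones, with wide overlap. It read -2.82, -3.13, -2.79 and -2.83 in sham mice labelled knockout and -2.45, -2.74, -2.55 and -2.46 after irradiation, where the groups do not overlap (exact permutation p = 0.0286, two-sided, the smallest that 4 against 4 arrays allow). The average change was 0.34 ± 0.15 (limma adjusted p = 0.956). The dimmer C3 probe read -3.65, -2.87, -3.38 and -1.98 in sham wild-type mice and -2.03, -1.82, -3.15 and -2.25 in irradiated ones. On that probe the labelled knockout sham arrays lay together at -3.96, -4.03, -4.04 and -4.26, and the irradiated ones at -3.10, -3.89, -3.13 and -2.49. Its average irradiation change was 0.79 ± 0.26 (adjusted p = 0.622 among all kept probes), in the same direction as the brighter probe and not past the threshold. Both C3 probes put the irradiated labelled knockout arrays above the sham arrays with no overlap, while in wild type both overlapped.

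The C3 promoter is printed because both C3 probes read higher after irradiation without a call.
C3 (chr17:57228137-57228386, minus strand): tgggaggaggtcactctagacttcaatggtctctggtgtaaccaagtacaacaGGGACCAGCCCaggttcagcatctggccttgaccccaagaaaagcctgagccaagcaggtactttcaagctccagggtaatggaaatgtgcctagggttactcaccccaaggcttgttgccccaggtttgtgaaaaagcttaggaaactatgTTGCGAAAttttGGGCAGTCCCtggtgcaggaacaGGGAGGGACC
It held the single match to TTGCNNAA among these promoters, TTGCGAAA, 37 bases before the start, and 4 matches to the NF-kB letters, of which the first 2 overlap each other.

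Cfb encodes factor B, the protease of the alternative pathway C3 convertase, and lies near C4a on chromosome 17 with 6 genes listed between them. Its kept probe read -5.91, -5.77, -5.91 and -6.41 in sham wild-type mice and -5.29, -5.49, -5.07 and -5.11 in irradiated ones. It read -6.79, -6.93, -6.00 and -5.86 in sham mice labelled knockout and -5.40, -5.25, -5.83 and -5.11 after irradiation. Irradiated mice were higher than every sham mouse of their genotype, although in the labelled knockout the lowest irradiated mouse lay just above the highest sham mouse. The change was 0.76 ± 0.24 (SE) in wild type and 0.99 ± 0.24 in the labelled knockout, and each had the smallest exact permutation p possible (0.0286, two-sided, 4 against 4). Within a single genotype neither passed the threshold over all genes (limma adjusted p = 0.9998 and 0.298). Cfb was dim, well above background on 15 of 16 arrays. The other Cfb probe lacked the well-above-background flag on all 16 arrays, and no change is given for it.

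The average Cfb change kept its direction under all 26 alternatives computed, with an adjusted p of 0.0164 to 0.200. Among the fits that left out 1 array, the call was kept without replicate 3 or 4 of labelled knockout sham and without replicate 3 of the irradiated labelled knockout. The adjusted p was 0.200 with normexp and 0.112 with the replicate number as a block.

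The receptor for the C3 fragment C3a, C3ar1, read -5.01, -5.05, -4.95 and -5.33 in sham wild-type mice and -4.20, -4.62, -4.78 and -4.58 in irradiated ones, with no overlap. In the labelled knockout it read -4.54, -5.21, -5.12 and -4.55 in sham and -4.24, -4.58, -4.47 and -4.82 after irradiation, and there replicates 1 and 4 of sham lay within the irradiated range. The change was 0.54 ± 0.18 (SE) in wild type, 0.33 ± 0.18 in the labelled knockout and 0.43 ± 0.13 on average (limma adjusted p = 0.452).

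The receptor for C5a, C5ar1, read -5.92, -5.44, -5.46 and -5.56 in sham wild-type mice and -5.57, -5.00, -4.80 and -4.91 in irradiated ones. Irradiated replicate 1 lay within the sham range, and the other irradiated wild-type arrays lay above it. In the labelled knockout C5ar1 read -5.81, -5.80, -6.18 and -5.69 in sham and -5.52, -5.34, -5.41 and -5.30 after irradiation, with no overlap. The change was 0.52 ± 0.16 in wild type, 0.48 ± 0.16 in the labelled knockout and 0.50 ± 0.12 on average (limma adjusted p = 0.151). Without replicate 1 of the irradiated wild type the average was 0.58 and passed the threshold (adjusted p = 0.0148), as it did with array weights (0.59, adjusted p = 0.0203). These were 2 of 27 alternatives, and the other 25 gave no call. Over all of them the limma adjusted p reached 0.516, and on the log2 scale the change ran from 0.26 to 0.59. C5ar1 was dim, with a mean level of -5.48.

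Promoters of both receptors are printed, since both genes had positive changes without a call.
C3ar1 (chr6:122856158-122856407, minus strand): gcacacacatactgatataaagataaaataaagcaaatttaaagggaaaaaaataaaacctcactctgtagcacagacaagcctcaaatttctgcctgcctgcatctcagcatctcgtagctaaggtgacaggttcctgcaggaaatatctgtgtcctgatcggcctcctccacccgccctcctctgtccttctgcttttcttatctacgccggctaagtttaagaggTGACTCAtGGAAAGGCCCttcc
C5ar1 (chr7:16259339-16259588, minus strand): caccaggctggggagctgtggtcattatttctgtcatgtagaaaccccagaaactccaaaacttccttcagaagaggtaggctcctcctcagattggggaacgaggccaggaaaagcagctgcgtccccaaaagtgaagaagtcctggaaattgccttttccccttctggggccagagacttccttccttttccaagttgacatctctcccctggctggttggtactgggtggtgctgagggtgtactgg
The C3ar1 window held the AP-1 letters TGACTCA 15 bases before the start and 1 match to the NF-kB letters beside it, and the C5ar1 window held none of the motifs searched.

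Within each genotype no complement gene passed the threshold. In wild type 0 of 9 were called (limma), where 0.0746% of all genes were, and 3 of 9 had an unadjusted p under 0.05, all higher, against 0.746% of all genes. In the labelled knockout 0 of 9 were called, where 0.120% of all genes were, and again 3 of 9 had an unadjusted p under 0.05, all higher, against 2.49%. The wild-type groups did not overlap for Cfb and C3ar1, 2 of 9 genes, where 0.866% of all genes had irradiated arrays above every sham array. In the labelled knockout they did not overlap for C3, C4b, Cfb and C5ar1, 4 of 9 genes, where the share was 1.16%. The difference between the genotypes in the response to irradiation was called for 0 of 9 genes and for 0% of all genes (limma), and 222 of 17436 (1.27%) had an unadjusted p under 0.05, none of them among the 9. This difference, labelled knockout minus wild type, ran from -0.21 for C3ar1 to 0.47 for C4a, with a 95% interval for C4a of -0.23 to 1.17.

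**Figure D3:**
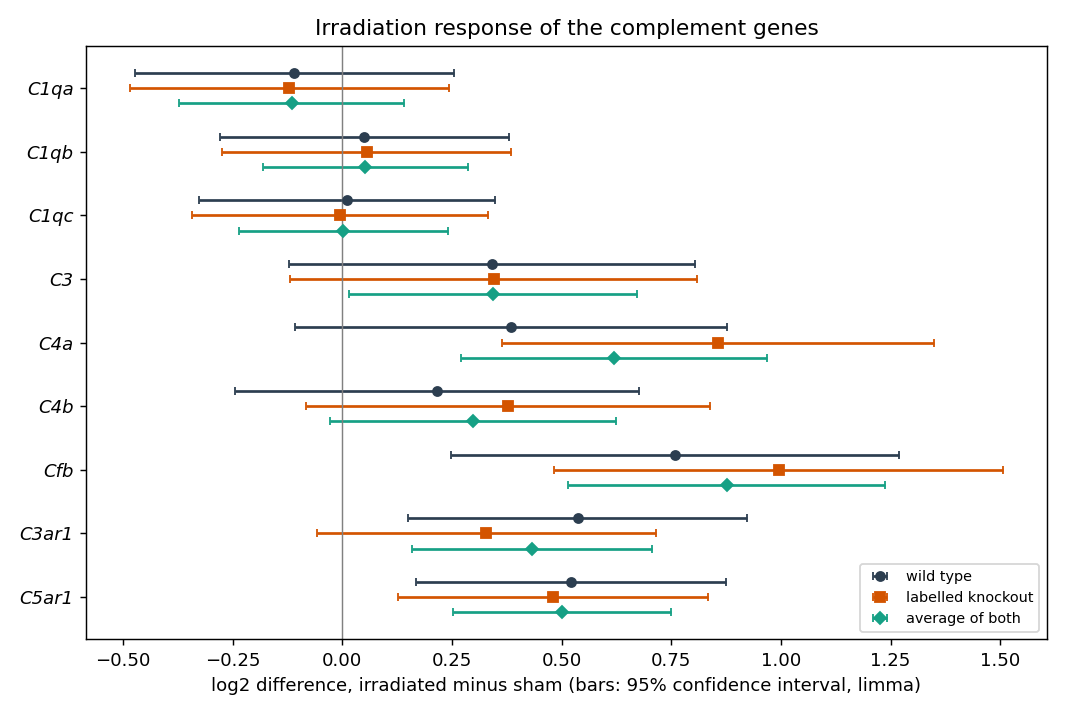
Irradiation change of each complement gene (log2 difference, irradiated minus sham) in wild type, in the labelled knockout and averaged, with 95% confidence intervals from limma. Intervals of Cfb lie above 0 in all comparisons, those of C5ar1 too, and the C1q intervals all cross 0.

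Between genotypes, 0 of the 9 genes were called by limma in sham, after irradiation or on average, where 0.0516%, 1.18% and 5.40% of all genes were called. On average over treatments, 3 of 9 had an unadjusted p under 0.05, against 21.7% of all genes. The brighter C4b probe gave a difference, labelled knockout minus wild type, of -0.46 ± 0.15 (SE, adjusted p = 0.0908), and the dimmer probe gave 0.07 ± 0.13. C1qc differed by 0.25 ± 0.11 (adjusted p = 0.216). C5ar1 differed by -0.30 ± 0.12 (adjusted p = 0.147) and Cfb by -0.28 ± 0.17 (adjusted p = 0.368), but with normexp both differed by 0.31 in the other direction, past the threshold (adjusted p = 0.0224 and 0.0461). C3ar1 differed by 0.13 ± 0.13, and by 0.38 with normexp (adjusted p = 0.00108). Under normexp the 3316 genes with a mean level under -4 had a median difference between genotypes of 0.41, against 0.02 with the processed signal, and Cfb, C3ar1 and C5ar1 are among these dim genes. In this comparison normexp called 4214 of all 17436 genes, against 942 with the processed signal.

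The C3 probes disagreed between genotypes. The brighter gave a difference, labelled knockout minus wild type, of 0.20 ± 0.15 (adjusted p = 0.499). The dimmer gave -0.97 ± 0.26, which passed the threshold among all kept probes (limma adjusted p = 0.0304). On the dimmer probe every labelled knockout sham array lay below every wild-type sham array (-1.10 ± 0.37, exact permutation p = 0.0286, two-sided, 4 against 4), and after irradiation the genotypes overlapped. The call on the dimmer probe was lost in 6 of 16 fits that left out 1 array, with adjusted p up to 0.0638. These were the fits without replicate 2 of the sham wild type, 2 or 4 of the irradiated wild type, 3 or 4 of the sham labelled knockout, or 2 of the irradiated labelled knockout. Since slide and genotype coincide and the probes differ in sign, no direction is given for C3 between genotypes.

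**Figure D4:**
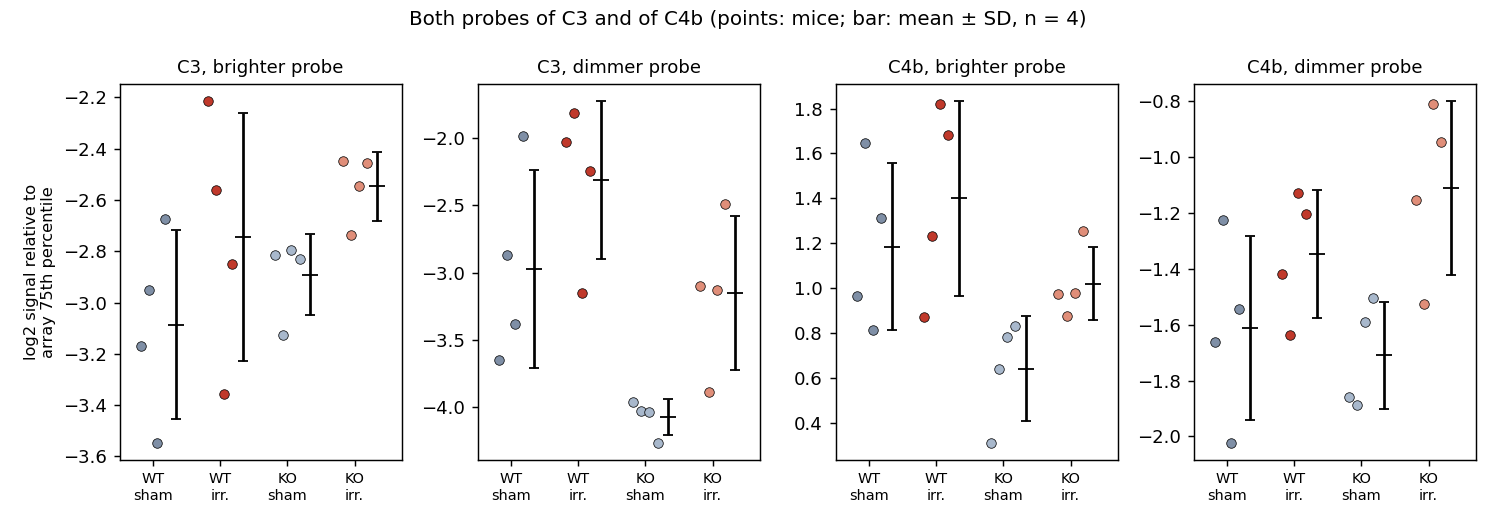
Level (log2 signal minus that of the 75th percentile on the same array) of the brighter and dimmer probe of C3 and of C4b in every mouse, with the mean ± SD of 4 mice beside the points. The group means of all 4 probes are higher after irradiation in both genotypes, while the genotypes differ in opposite directions on the C3 probes.

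Of 50 other complement genes listed, 39 were tested, and none was called for irradiation averaged over genotypes (limma, where 2 had an unadjusted p under 0.05, against 871 of all 17436). They split into 20 higher and 19 lower, with a median change of 0.02. The smallest p-values belonged to Cd93, a receptor of endothelial and myeloid cells (-0.31 ± 0.12 SE, adjusted p = 0.826), Fcna, the lectin ficolin A (0.67 ± 0.27, adjusted p = 0.856), and Cd55b, a decay-accelerating factor (0.43 ± 0.23, adjusted p = 0.99996). Between genotypes 1 of the 39 was called, Clu, where 5.40% of all genes were. Clu encodes clusterin, an inhibitor of the terminal complex that astrocytes express strongly. Wild-type mice read 6.01, 6.16, 6.00 and 6.16 after sham exposure and 6.17, 6.04, 5.96 and 6.13 after irradiation. Mice labelled knockout read 6.28, 6.37, 6.41 and 6.37 after sham exposure and 6.27, 6.48, 6.57 and 6.58 after irradiation. Every labelled knockout array lay above every wild-type array, by 0.34 ± 0.06 on average (limma adjusted p = 0.0111), with slide and genotype not to be told apart. Between genotypes 2 of 14 astrocyte markers were called, both higher in the labelled knockout, with 7 of 14 higher in all. Of 11 excitatory neuron markers, 10 were higher there and 2 were called (median 0.30). Meningeal and perivascular fibroblast markers were lower there for 13 of 13 (median -0.34), and border-associated macrophage markers for 9 of 10 (median -0.25), with 0 called in either list. The part of these cell types in the differences between genotypes was not tested. Serping1, the C1 inhibitor (-0.48 ± 0.21, adjusted p = 0.202), and Colec11, a collectin (-0.20 ± 0.09, adjusted p = 0.188), were not called between genotypes. C6, C8a, Cfi, Colec10 and Vsig4 lacked the well-above-background flag on all 16 arrays.

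Cell type markers moved beside the complement genes, and in bulk cortex fewer cells of a type and less RNA per cell cannot be told apart. Of 28 microglia markers, all tested, 3 fell on average after irradiation and 21 of 28 had a negative change (median -0.20), where 53 of all 17436 genes (0.304%) were called. P2ry12, a purinergic receptor of resting microglia, fell by 0.69 ± 0.07 on the log2 scale (limma adjusted p = 0.000219), Ly86 by 0.52 ± 0.10 (adjusted p = 0.0471) and Ctss, cathepsin S, by 0.43 ± 0.08 (adjusted p = 0.0461). The log2 of the summed microglia markers ran from 6.72 to 6.93 and 6.61 to 6.74 in wild type, and from 6.58 to 6.84 and 6.53 to 6.73 in the labelled knockout, sham before irradiated. The C1q genes, which microglia express, had average changes near 0 on the same arrays, and the difference between them and these markers was not tested. Of 11 monocyte and neutrophil markers tested, 9 were higher and none was called (limma, where 2 had an unadjusted p under 0.05), led by Lcn2, the iron-binding lipocalin 2, at 1.17 ± 0.29 (adjusted p = 0.214). Lcn2 also stands in the reactive astrocyte list and leads it, and of that list 14 of 20 were higher and none was called (median 0.17, 1 with an unadjusted p under 0.05). The summed reactive astrocyte level ran from 3.96 to 4.37 and 3.97 to 4.44 in wild type, and from 3.90 to 4.19 and 3.85 to 4.38 in the labelled knockout. The monocyte and neutrophil sum ran from 3.29 to 3.61 and 3.52 to 3.80 in wild type, and from 2.95 to 3.60 and 3.31 to 3.79 in the labelled knockout, in the same order. Choroid plexus markers had a median change of 0.39 averaged over genotypes, with 0 of 13 called and none at an unadjusted p under 0.05 (limma). In the labelled knockout their median was 0.57 with 3 of 13 at an unadjusted p under 0.05, all higher, and in wild type 0.14 with 0. None was called in either. In sham these markers were lower in the labelled knockout for 13 of 13 (median -0.46). Their summed level ran from 0.71 to 1.50 and 0.66 to 2.40 in wild type, and from -0.12 to 1.90 and 0.79 to 1.98 in the labelled knockout. Oligodendrocyte precursor markers were lower for 12 of 12, and 2 fell past the threshold, Neu4 by 0.60 ± 0.08 (limma adjusted p = 0.00399) and Gpr17 by 0.63 ± 0.10 (adjusted p = 0.00975). The precursor sum ran from 5.46 to 5.79 and 5.42 to 5.54 in wild type, and from 5.65 to 5.80 and 5.58 to 5.68 in the labelled knockout. Of 7 lymphocyte markers tested, 2 fell, Il7r by 0.98 ± 0.13 (adjusted p = 0.00217) and Cd79b by 0.74 ± 0.11 (adjusted p = 0.00409), while 4 of 7 were higher and Cd3g, Cd8a and Cd79a lacked the well-above-background flag on all arrays. The lymphocyte sum ran from -0.06 to 1.24 and 0.45 to 1.51 in wild type, and from 1.06 to 1.62 and 1.41 to 1.57 in the labelled knockout. Averaged over treatments, however, 4 of the 7 markers were lower in the labelled knockout (median -0.09), and the highest difference was 1.99. In that comparison 1 of 7 was called, in the higher direction (limma, where 942 of all 17436 genes were called), so the sum does not follow most of these markers. No marker of the other 7 cell type lists was called for the average irradiation change (limma, where 5 had an unadjusted p under 0.05). Mature oligodendrocyte markers, one of these lists, were lower for 16 of 16 in wild type and higher for 14 of 16 in the labelled knockout, with none called or at an unadjusted p under 0.05 in either (limma). The part of these cell types in the complement changes was not tested.

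Interferon-stimulated genes were read because interferon induces several complement genes. Of 36 tested, 29 had a positive average change (median 0.18) and 1, Oasl2, an oligoadenylate synthetase-like gene, was called (0.68 ± 0.13, limma adjusted p = 0.0444), where 0.304% of all genes were. In wild type 22 of 36 were higher (median 0.09), and in the labelled knockout 32 of 36 (median 0.27), with none called in either. The difference between these responses was positive for 34 of 36 (median 0.20), against 8263 of all 17436 genes, with none called and 1 at an unadjusted p under 0.05 (limma). In sham these genes were lower in the labelled knockout for 34 of 36 (median -0.21), and after irradiation for 19 of 36 (median -0.0033). The difference in response thus lay mostly in the sham groups, where slide and genotype cannot be told apart. Oasl2 read -2.04, -2.11, -2.54 and -2.20 in sham wild-type mice and -1.68, -1.71, -1.74 and -1.92 in irradiated ones. It read -2.22, -2.65, -2.29 and -2.53 in sham mice labelled knockout and -0.94, -1.97, -1.65 and -1.54 after irradiation, so the groups did not overlap in either genotype, as for Cfb. Bst2 (0.47 ± 0.09, adjusted p = 0.0503) and Tap1 (0.48 ± 0.10, adjusted p = 0.0640) followed.

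**Figure D5:**
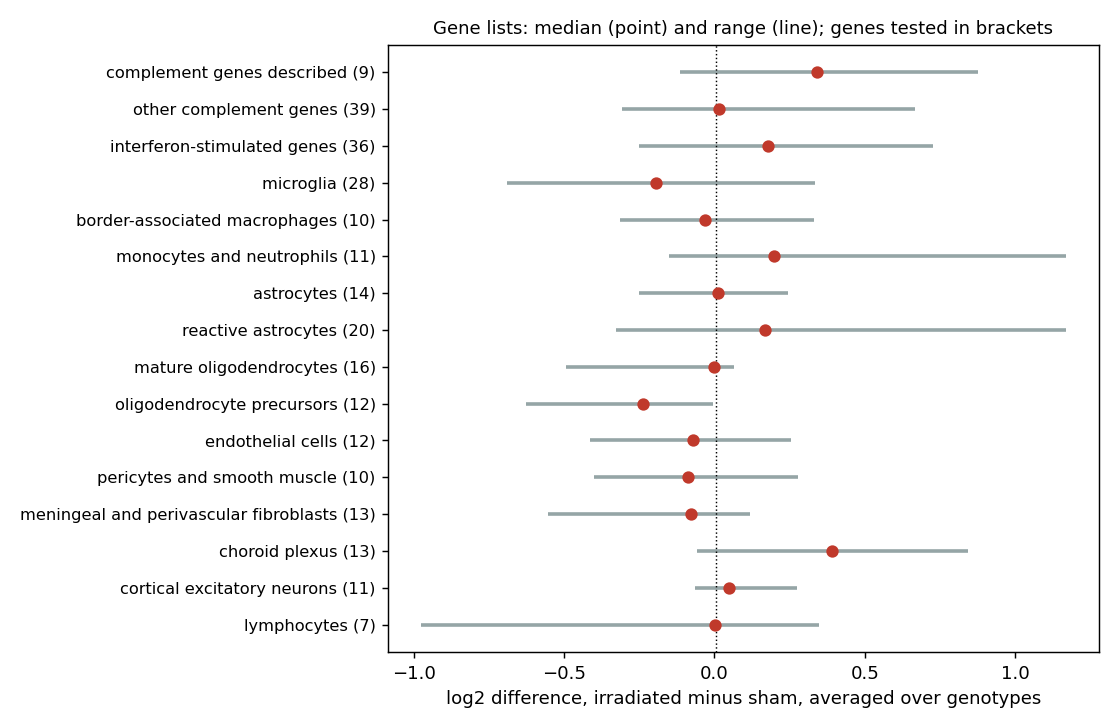
Average irradiation change (log2 difference, irradiated minus sham) of the 9 complement genes and of 15 other gene lists, with the median as a point, the range as a line, the number of genes tested in brackets, and the median of all genes as a dotted line. The median of the 9 genes is 0.34, that of the other complement genes is 0.02 and that of the microglia markers is -0.20.

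Across mice, the genes most like each of the other members after subtraction of group means were as follows, over the same 16 arrays and 17380 genes. The highest correlations were 0.842 with Fam24b for C3, 0.802 with Shmt1 for C4a, 0.864 with Adarb2 for C4b and 0.775 with Ago1 for Cfb. C3ar1 was most like Tanc2 (0.919), followed by Mrgbp (0.915) and Gsdmc (0.901), and C5ar1 most like Gnai3 (0.846), followed by Shtn1 (0.837) and Mcm3 (0.826). No member was among the 3 genes most like any of these 6. Next for C3 came Xntrpc (0.839) and Il27 (0.835), for C4a Ext2 (0.799) and Cd3d (0.79), for C4b Aldh3b1 (0.86) and Efemp2 (0.857), and for Cfb Nostrin (0.775).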

How the data were processed

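RNA of mouse cerebral cortex, 1 array per mouse, was measured in 16 mice. Per the file headers, the authors extracted the 1-colour arrays with Agilent Feature Extraction 12.0.3.1, and the processed signal intensity is background-subtracted and detrended within an array, with no scaling between arrays. A second table, deposited by the authors, holds 1 score per array for 42859 features. Its probe means had a median of -0.18 on each of the 16 arrays and a correlation of at least 0.9996 with the log signal of the same array. Its scaling is not stated in the labels or headers, so it served as an alternative only.

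From the intensity, log2 minus the 75th percentile of the array was computed, outlier spots were left out and spots of a probe averaged. Probes well above background on at least 4 arrays were kept (39588 of 56605), and a gene needed a value on 12 arrays. Genes were named by RefSeq accession through a GRCm38.p6 gene table, and the brightest kept probe represented a gene. Depth is set by the number of arrays. limma 3.58.1 (R 4.3.3) was fitted to 17436 genes with a mean per group and 12 residual degrees of freedom, with two-sided Benjamini-Hochberg adjustment within a contrast and a threshold of 0.05. The code was tested on simulated data. Probe-level results were adjusted over all kept probes, and exact permutation tests compared 4 with 4 arrays. The alternatives were normexp (on the median spot signal, offset 50), quantile scaling, the percentile over detected probes, other filters, 2-group fits, trended variances, array weights, a block for the replicate number, other probe rules, the deposited score, and leaving out each array, with probe choice and filter kept. Leaving out the 2 dimmest arrays was added after the data were seen.

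The genes, lists, motifs and tests were chosen with earlier results of these data known. Genes named are the members, other complement genes that were called or had the 3 smallest p-values, up to 3 per marker list by p where a list is described, and the 3 most correlated with each member, of which 1 is not reported here.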

Additional observations from a re-analysis of the deposited data

Results flagged for a closer look

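Of 44 groups of 4 arrays examined for the 11 kept probes, 1 held an array far from the others, where chance gives about 1 in 20 groups. The brighter C3 probe read -3.13 in labelled knockout sham replicate 2, below the other 3 arrays, which lay between -2.83 and -2.79. The gap took up 0.89 of the range of the group, above Dixon's critical value for a group of 4. The dimmer C3 probe read -4.03 on the same array, inside its group's range.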

How the results depend on the processing

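Of 922 alternative values of 34 gene and probe results, 867 kept their direction and side of the threshold, 26 lost a call, 9 gained one and 20 took the other direction. The losses were 20 of 26 alternatives for the average irradiation change of Cfb and 6 of 26 for the dimmer C3 probe between genotypes. The other results had no call to lose, so the total of 867 says little about how firm the calls are. Cfb, C3, C4a, C4b, C3ar1 and C5ar1 kept a positive average irradiation change under every alternative computed for them. The count of complement genes called for the average irradiation change was 1. It was 0 with normexp, the percentile over detected probes, no filter, the strict filter (which drops Cfb), trended variances, the replicate block, the deposited score, every probe on its own, and without the 2 dimmest arrays. It was 2 with array weights (Cfb and C5ar1), where 84 of all 17436 genes were called, against 53 in the main fit. It was 0 to 1 when 1 array was left out. Quantile scaling and the mean of probes kept it at 1. Adjusted p for Cfb was 0.0528 with the percentile over detected probes, 0.0702 with no filter, 0.0985 with trended variances and 0.112 with the replicate block.

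Between genotypes on average, 0 complement genes were called. There were 4 with normexp (C4b, Cfb, C3ar1 and C5ar1), where 4214 of all 17436 genes were called, against 942 in the main fit. There were 2 with array weights (2000 of all genes), 1 with every probe on its own, and 0 to 2 when 1 array was left out. The count was 2 without irradiated wild-type replicate 1 (C4b at -0.55 and C5ar1 at -0.38), where 1551 of all genes were called. After irradiation there were 3 with normexp, where 3371 of all genes were called, against 205 in the main fit. The other counts stayed at 0, which for the irradiation contrasts and sham includes the 2-group fits. Differences that changed sign between genotypes were Cfb (0.31 with normexp), C5ar1 (0.31 with normexp), C3 (-0.39 as the mean of its probes), the dimmer C4b probe (-0.0447 without the 2 dimmest arrays) and C1qa (-0.0542 without the 2 dimmest arrays, and -0.0496 to 0.0858 when 1 array was left out). The average irradiation change of C1qc was -0.0312 with normexp, -0.0014 with the percentile over detected probes, -0.0537 with array weights, -0.048 without the 2 dimmest arrays, and -0.0645 to 0.0538 when 1 array was left out. That of C1qb was -0.0142 without the 2 dimmest arrays, and -0.0212 to 0.103 when 1 array was left out. The causes were not tested.

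Replicate numbers are shared between groups and equal the column on the slide on all 16 arrays. Same-numbered arrays had correlations from -0.599 to 0.525, so not every pair was over 0.1. On the labelled knockout slide all 4 pairs were positive (0.053 to 0.525), and 3 of 4 were the best match. On the wild-type slide the pairs ran from -0.599 to 0.202, and none was the best match. The numbers were not taken as pairs, and the block changed no call other than that of Cfb. Cfb was well above background on 15 of 16 arrays.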
